A study of Drosophila melanogaster with 2 samples.

Results

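The proteins of the large subunit of the cytosolic ribosome are encoded in the fly by genes whose symbols start with RpL. Taken from the Ensembl annotation as nuclear protein-coding genes with such a symbol, without RpLP0-like, they numbered 53 of 13945 nuclear protein-coding genes. Each was examined for a TFAM-GFP ChIP-seq summit, the point of highest enrichment in a peak, within 500 bp of any of its annotated start sites. TFAM is the high-mobility-group protein known for packaging mitochondrial DNA and for its role in mitochondrial transcription. Both samples were whole embryos, 0 to 16 h old and of mixed sex, of a transgenic Drosophila melanogaster line that stably expressed TFAM fused to GFP at its C terminus; whether the line also makes untagged TFAM is not stated in the labels. The immunoprecipitation used an antibody against GFP according to the sample descriptions, which were followed here, although TFAM stands as the antibody in a separate label. The samples are biological replicates 3 and 4 of this 1 group, so no comparison of conditions was possible, and no untagged or control sample was analysed here. The embryos hold many cell types, and fewer cells with occupancy cannot be told apart from weaker occupancy per cell.

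Cytosolic ribosomes translate messenger RNAs of nuclear genes, and the large subunit carries the peptidyl transferase centre, the exit tunnel and a flexible stalk that recruits translation factors. Its proteins are needed in near equal amounts, and most of their genes are among the most highly transcribed of growing cells. In flies, many of these genes start within a pyrimidine-rich initiator called the TCT motif, used in place of the common initiator, and DRE and Motif 1, bound by Dref and M1BP, are other elements known at their promoters.

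Of the 53 genes, 31 had a summit in the list of peaks that passed the authors' reproducibility threshold, a share of 58.5% (95% Wilson interval 45.1 to 70.7%), where 5.35% of all nuclear protein-coding genes had one. The genes with such a summit are called occupied below, as a word for the peak call and not for a measured function. Those named here were RpL4, RpL7, RpL7A, RpL8, RpL11, RpL13, RpL13A, RpL14, RpL17, RpL19, RpL22, RpL23, RpL23A, RpL24, RpL27, RpL27A, RpL28, RpL30, RpL31, RpL32, RpL34a, RpL34b, RpL35A, RpL36, RpL37A, RpL39, RpL41, RpLP0, RpLP1 and RpLP2. Their summits lay close to the start site, with a median position of -33 bp (negative is upstream; 95% order-statistic interval -51 to -8 bp). Over the 715 other occupied genes the median was -155 bp. No 2 of the 31 genes shared a peak, and at none of them did another protein-coding gene start nearer to the summit. By that stricter count of genes nearest to their peak, the members again numbered 31, against 3.94% of all protein-coding genes.

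Promoters with and without such a summit are shown as 100 bases before and 15 from the start site, 5' to 3' on the strand of the gene, on the build dm6 (RefSeq Release 6). RpL14, RpL32, RpL28 and RpL34a are among the 10 members of highest peak value. RpL23A and RpL13A, which ranked above RpL34a and have a TCT core, are not shown. RpL27 and RpLP1 were chosen as examples of DRE and Motif 1 beside a summit, and RpL40 and RpL10Aa as promoters with no region in any of the lists. The RpL14 window is chr3L:8600906-8601020 (plus strand), that of RpL32 chr3R:30046147-30046261 (minus strand), that of RpL28 chr3L:3222946-3223060 (minus strand) and that of RpL34a chr3R:26059253-26059367 (minus strand). The RpL27 window is chr3R:25685037-25685151 (minus strand), that of RpLP1 chr2L:419852-419966 (plus strand), that of RpL40 chr2L:4227599-4227713 (plus strand) and that of RpL10Aa chr3R:15037266-15037380 (plus strand). Capitals mark CTTT, the core of the TCT motif, where its first base lies within 5 bp of an annotated start. They also mark the DRE (TATCGATA) and the Motif 1 core (GTCACACT). Among all members, the first base of a CTTT fell on the annotated start itself at RpL34b only, and elsewhere up to 5 bp before or after it. A marked CTTT is thus a match near an annotated start and need not be the initiator itself.
RpL14 promoter: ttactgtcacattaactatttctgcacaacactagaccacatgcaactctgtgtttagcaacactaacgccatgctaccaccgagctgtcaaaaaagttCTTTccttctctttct
RpL32 promoter: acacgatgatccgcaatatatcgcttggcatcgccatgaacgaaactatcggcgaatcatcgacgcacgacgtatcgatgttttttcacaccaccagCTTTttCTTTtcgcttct
RpL28 promoter: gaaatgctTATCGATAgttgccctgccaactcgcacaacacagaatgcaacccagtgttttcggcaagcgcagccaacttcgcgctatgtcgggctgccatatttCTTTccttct
RpL34a promoter: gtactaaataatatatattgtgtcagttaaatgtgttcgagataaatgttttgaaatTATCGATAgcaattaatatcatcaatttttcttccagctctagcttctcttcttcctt
RpL27 promoter: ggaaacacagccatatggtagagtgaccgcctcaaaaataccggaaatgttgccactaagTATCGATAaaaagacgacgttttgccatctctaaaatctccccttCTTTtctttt
RpLP1 promoter: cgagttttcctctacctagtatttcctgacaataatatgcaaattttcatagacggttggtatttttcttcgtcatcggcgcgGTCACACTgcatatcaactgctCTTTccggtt
RpL40 promoter: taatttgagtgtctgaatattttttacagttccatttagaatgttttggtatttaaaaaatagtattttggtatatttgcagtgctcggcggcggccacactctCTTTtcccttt
RpL10Aa promoter: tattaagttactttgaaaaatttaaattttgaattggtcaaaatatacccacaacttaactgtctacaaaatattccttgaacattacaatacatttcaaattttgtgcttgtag
The summits lay at -47 bp (RpL14), -120 bp (RpL32), -64 bp (RpL28), -82 bp (RpL34a), -28 bp (RpL27) and -39 bp (RpLP1) from the start shown. That of RpL32, the farthest from a start among the occupied members, lies upstream of the bases printed. A TCT core alone did not separate promoters with a peak from those without, since RpL40 has one and RpL34a does not within the 5 bp used.

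RpL7, RpL24 and RpLP0 have an annotated start upstream of the one with the TCT core, so the bases 12 before to 14 after the latter are shown. These are chr2L:10201088-10201113 (plus strand) for RpL7, chr2L:13395079-13395104 (minus strand) for RpL24 and chr3L:22076080-22076105 (plus strand) for RpLP0, with CTTT in capitals.
RpL7 start window: tagcacgtttccggtCTTTctttccc
RpL24 start window: tccacttccgttttCTTTtcttttcg
RpLP0 start window: cgccgccaacttcactCTTTccgttc
The RpL7 summit was at +39 bp from the nearest annotated start and at -57 bp from the start with the TCT core. For RpL24 these positions were -1 and -40 bp, and for RpLP0 both were -41 bp.

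Peak values are the authors' own, on an open-ended score whose scale differs between the lists, so that levels are compared only within a list. The highest in the family belonged to RpL7 (chr2L:10201004-10202321), a protein of the large subunit that contacts its RNA, with 303.3 on both replicates together, 131.1 in replicate 3 and 167.7 in replicate 4. RpL14 had 288.2 on both together, 112.3 in replicate 3 and 186.6 in replicate 4. RpL41, the smallest protein of the ribosome, had 262.6, 118.4 and 145.8. These 3 genes were also the 3 highest members in replicate 4, while in replicate 3 RpL28 lay between RpL41 and RpL14. RpL24, which forms a bridge to the small subunit, had 227.1 on both together, 104.1 in replicate 3 and 120.5 in replicate 4. RpL32, often used in flies as a reference gene for messenger RNA measurements, had 221.8, 101.4 and 140.2. RpLP0, the base of the stalk, had 221.4, 100.7 and 112.9. The order of RpL24, RpL32 and RpLP0 differed between the replicates, RpL24 leading in replicate 3 and RpL32 in replicate 4, so no order among them is given.

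RpL28 had 215.1 on both replicates together, 115.4 in replicate 3 and 103.7 in replicate 4, and thus stood higher among the members in replicate 3 than in replicate 4. RpL23A, at the rim of the exit tunnel, had 214.8, 103.2 and 111.1. RpL13A, whose human counterpart also acts outside the ribosome in translational control, had 213.0, 95.8 and 117.0. RpL34a, 1 of the 2 genes for this protein, had 211.0, 94.1 and 110.5. The 10 genes named so far thus ran from 211.0 to 303.3, above the other occupied members, of which RpL39 was the lowest at 96.5.

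Across the 31 occupied genes the median value was 161 (95% order-statistic interval 124 to 211), against 134 over the 715 other occupied genes and 130.0 over the 1268 nuclear peaks of the thresholded list. The members' interval holds the medians of the others on its lower side. Among the 1268 nuclear peaks, RpL7 ranked 77 and RpL39 1165, 13 members lay among the 317 highest and 20 above the median. A peak was frequent among the members, but none of their peaks stood at the very top of the list, whose highest value at a protein-coding gene was 837. The peaks had the list's common full length of 390 bp at 29 of the 31 genes, and those of RpL7 and RpL14 were shorter, at 163 and 98 bp. Whether the short calls bear on the high values of these genes was not tested.

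**Figure D1:**
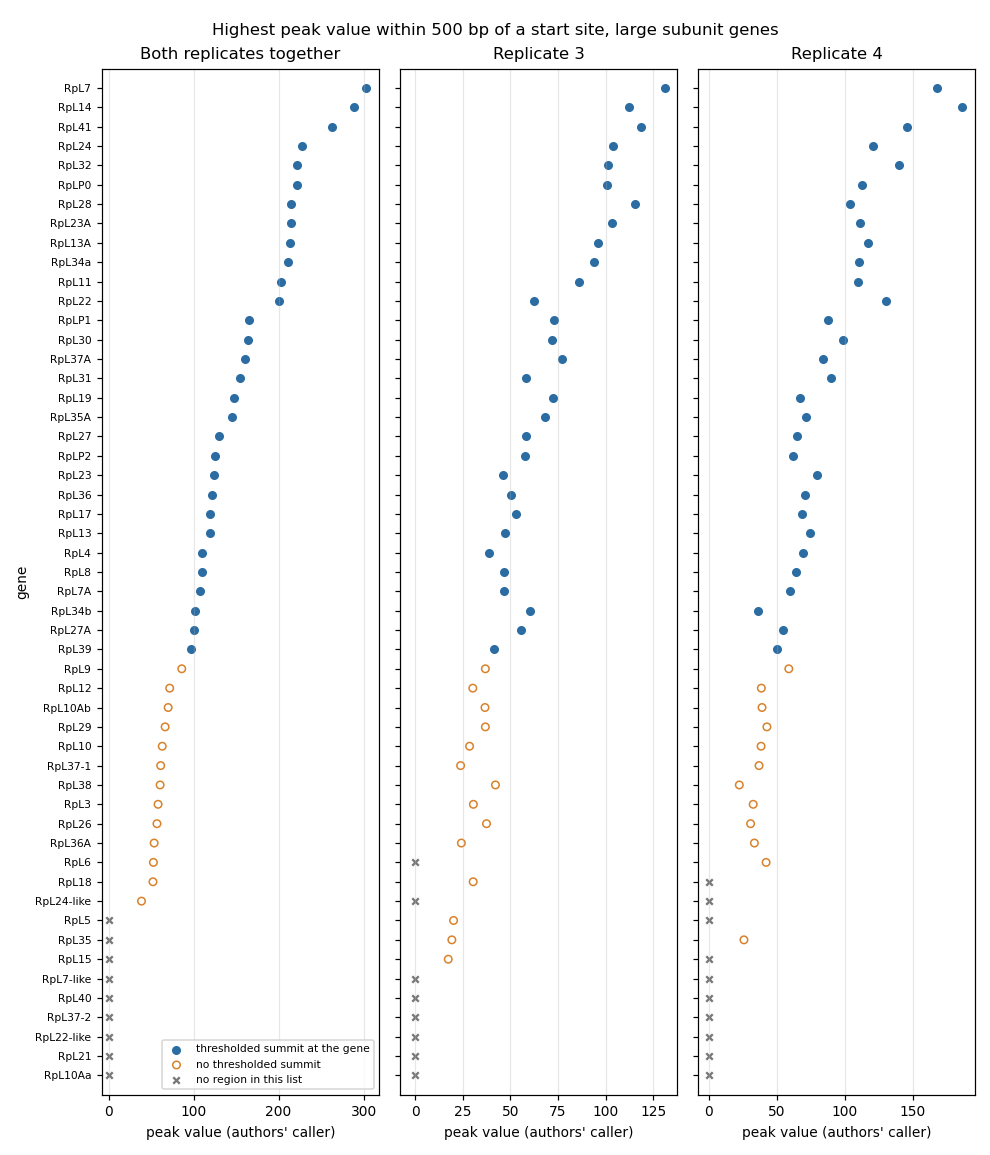
Highest peak value (x axis, the authors' score) within 500 bp of a start site for the large subunit genes reported by name (y axis) on both replicates together, in replicate 3 and in replicate 4; filled points are genes with a thresholded summit, open points genes without one and crosses genes with no region in that list. On both replicates together the filled points run from 96.5 to 303.3 and the open points from 38.6 to 86.0, while in each replicate alone filled and open points overlap.

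Of the genes of the stalk and its base, 3 of 4 were occupied. RpLP1, which with RpLP2 forms the flexible part of the stalk, had 164.6 on both replicates together, 72.9 in replicate 3 and 87.8 in replicate 4. RpLP2 had 125.4, 57.8 and 62.1. Both lay below RpLP0 in each replicate. RpL12, at the stalk base, had no thresholded summit but a pooled region of 71.8 with a q-value of 0.022, and values of 30.3 in replicate 3 and 38.7 in replicate 4. RpL12 and RpL39 converge and overlap at their ends, and the nearest thresholded summit was 1984 bp from an RpL12 start, the smallest such distance of any unoccupied member.

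Of the proteins around the peptidyl transferase centre, where peptide bonds form, 1 of 3 genes was occupied (33.3%). RpL8 had 109.4 on both replicates together, 46.6 in replicate 3 and 64.3 in replicate 4. RpL3 had 58.1, 30.6 and 32.7, and RpL10, which joins late in subunit maturation, had 63.0, 28.6 and 38.5. RpL3 and RpL10 were thus below RpL8 in both replicates, and neither reached a pooled q-value of 0.05 (0.12 and 0.061). In the 5S ribonucleoprotein, the module of 5S ribosomal RNA with RpL5 and RpL11 that in mammals also restrains the p53 regulator MDM2, RpL11 had 202.4, 86.2 and 110.1. RpL5 had 20.2 in replicate 3 with a q-value of 0.35 and no region in replicate 4 or on both together.

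The exit tunnel and its rim, through which the growing chain leaves, had 7 of 10 genes occupied (70.0%, against 58.5% of all members). Their median value was 148, with a range of 96.5 to 215. On both replicates together RpL23A was the highest of them and RpL39 the lowest, and RpL22, RpL31, RpL19, RpL17 and RpL4 lay between. The replicates differed in this, with RpL22 (130.1) above RpL23A (111.1) in replicate 4 and RpL4 (38.6) below RpL39 (41.6) in replicate 3. RpL26, RpL35 and RpL38 of this group had no thresholded summit. RpL38 stood out between the replicates, with 42.2 and a q-value of 0.0064 in replicate 3 but 22.5 and 0.85 in replicate 4, and the 2 summits lay 228 bp apart. RpL26 had 37.5 in replicate 3 (q-value 0.0083) and 30.8 in replicate 4 (q-value 0.36).

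Of 5 proteins that join late or face the small subunit, RpL41 and RpL24 were occupied (40.0%). RpL29 had 66.4 on both replicates together, 36.9 in replicate 3 and 42.8 in replicate 4, with a pooled q-value of 0.044. RpL36A, beside the site through which spent transfer RNA leaves, had 53.5, 24.3 and 33.6. RpL40, made as a fusion to ubiquitin, had no region within the window in any of the 4 lists. This group thus held some of the highest members as well as 1 of the 6 genes with no region at all.

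A list of paralogues, together with genes that have a relative named -like, held 12 genes found in the annotation, of which 5 were occupied (41.7%). RpL34a and RpL34b were both occupied, the latter with a value of 101.0 on both replicates together, 60.1 in replicate 3 and 36.1 in replicate 4. RpL34b was thereby below RpL34a in each replicate. RpL22 had 200.1, 62.2 and 130.1, whereas RpL22-like, a paralogue known for its expression in the testis, had no region. RpL7-like and RpL24-like, whose yeast relatives are assembly factors rather than parts of the finished ribosome, stood apart from RpL7 and RpL24 as well. RpL7-like had no region, and RpL24-like had only a pooled region of 38.6 with a q-value of 0.76, at -217 bp. RpL10Ab had 70.0, 36.7 and 39.2 with a pooled q-value of 0.029, while RpL10Aa, a gene with 1 exon, had no region. RpL37-1 had 61.2, 23.9 and 37.0, and RpL37-2, also of 1 exon, had none. RpL34a and RpL34b were therefore the only pair of this list with both genes occupied. A gene with 1 exon was not always empty, since RpLP2 has 1 exon too. Regions of near-identical sequence could share or lose reads, and no source used here says how the authors treated such reads.

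The 22 genes without a thresholded summit were not uniformly empty. RpL9, RpL10Ab, RpL12 and RpL29 had a pooled region with a q-value of 0.05 or less, which brought the count to 35 of 53 (66.0%, against 9.47% of all protein-coding genes). RpL3, RpL6, RpL10, RpL18, RpL24-like, RpL26, RpL36A, RpL37-1 and RpL38 had a pooled region with a higher q-value, and any pooled region was listed at 44 genes (83.0%, against 25.3%). RpL5, RpL15 and RpL35 had a region in a replicate list only. RpL7-like, RpL10Aa, RpL21, RpL22-like, RpL37-2 and RpL40 had none in any list. The replicate and pooled lists include background regions, which is why a region in them is no peak call by itself. RpL9 was the highest gene outside the threshold, with 86.0 on both replicates together, 36.9 in replicate 3 and 58.9 in replicate 4. Just inside it were RpL39 with 96.5, 41.6 and 50.5, and RpL27A with 100.6, 55.4 and 54.7. RpL9 and RpL39 thus lay close to each other, with RpL9 above RpL39 in replicate 4 and below it in replicate 3.

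Some of these genes had a region in 1 replicate only. RpL18 had 52.1 on both replicates together and 30.5 in replicate 3, with a q-value of 0.022 there and no region in replicate 4. RpL6 was the reverse case, with 52.6 on both together, 42.2 in replicate 4 with a q-value of 0.064, and no region in replicate 3. RpL15 had 17.4 in replicate 3 alone, below that list's median of 18.7. RpL35 had 19.3 in replicate 3 and 25.9 in replicate 4 but no pooled region, and its summits lay 362 bp apart. RpL15 and RpL35 were thus at the level of the lists' background, while RpL6 and RpL18 lay above the median region of the list that held them.

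The pooled summits of the 13 genes that had one but missed the threshold were also near the start. Their median position was -4 bp, between -217 and 42 bp, and 12 of them lay within 100 bp. Of the 2769 other genes with a pooled but no thresholded summit, 34.1% had it within 100 bp and the median was -93 bp. The position near the start was therefore seen in a set of members that the threshold had left out, with values of 38.6 to 86.0.

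The summits of the occupied members lay nearer to the start than those of most other occupied genes. Of the 31 summits, 27 were upstream of the start and 4 downstream, from -120 bp at RpL32 to 39 bp at RpL7, and 30 (96.8%) were within 100 bp of it. Among the 715 other occupied genes, 177 (24.8%) were within 100 bp. The annotation places 23 of the 31 summits upstream of the gene and 8 in the 5' UTR. Members have more annotated starts than other genes, with over 1 start at 47.2% against 26.4%, which by itself shortens the distance to the nearest. For genes with 1 start, the median was -42 bp over 16 members, all 16 within 100 bp, and -158.5 bp over 358 others, 21.2% within 100 bp. Restricting the others to the 514 that were nearest to their peak gave -127 bp and 31.9%. At the 22 occupied members with a TCT core, the median distance from that start was -43 bp, with quartiles at -62.75 and -28.75 bp, and at 94 other genes with such a start it was -166.5 bp. The TCT start as the reference point was chosen after the values had been seen.

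**Figure D2:**
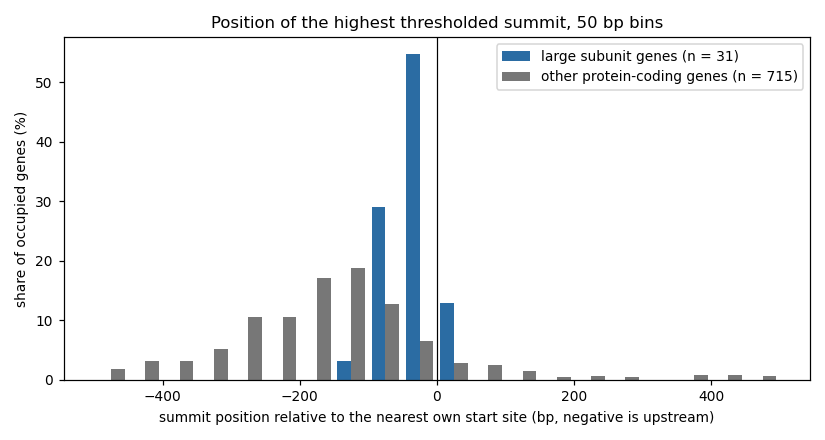
Position of the highest thresholded summit relative to the nearest own start site (x axis, bp, 50 bp bins, negative is upstream) as a share of occupied genes (y axis, percent) for 31 large subunit genes and 715 other protein-coding genes. The ribosomal summits lie between -120 and 39 bp, while those of the other genes spread over the whole window with a median of -155 bp.

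Both replicate lists had a region at 42 of the 53 genes (79.2%, against 18.8% of all protein-coding genes). At a q-value of up to 0.05 in each list, 31 genes remained by count (58.5%, against 5.63%): 30 of the occupied genes, all except RpL34b, and RpL9. Replicate 3 alone had such a region at 40 members (75.5%, against 11.9%), and replicate 4 at 31 (58.5%, against 6.81%). Of the unoccupied genes 9 passed in replicate 3 and 1 in replicate 4, and the whole replicate 3 list also held more such regions, with 3196 against 1717. The read depth of the libraries is unknown, because the lists hold no counts, and its part in this difference was not tested.

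In replicate 3 the occupied genes ran from 38.6 over a median of 72.1 to 131, and the 14 unoccupied genes with a region from 17.4 over 30.4 to 42.2, where the median of all nuclear regions was 18.7. In replicate 4 the occupied genes ran from 36.1 over 87.8 to 187, and 12 unoccupied genes from 22.5 over 37.8 to 58.9, where the median of all regions was 26.2. The groups overlapped at their edges in both lists, where RpL4 and RpL39 lay below RpL38 in replicate 3, and RpL34b, RpL39 and RpL27A lay below RpL9 in replicate 4. The order of the 31 occupied genes was similar in the replicates, with a Spearman coefficient of 0.80 across genes, which are not independent replicates and which were selected for reproducible rank. The ratio of the replicate 4 to the replicate 3 value had a median of 1.23, and ran from 0.601 at RpL34b to 2.09 at RpL22. Since the scale differs between the lists, this ratio only sets the genes against each other. It is no difference in level between the replicates, and the medians of all nuclear regions, 26.2 and 18.7, also differed. RpL34b was also the only occupied gene above a q-value of 0.05 in replicate 4, at 0.16.

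**Figure D3:**
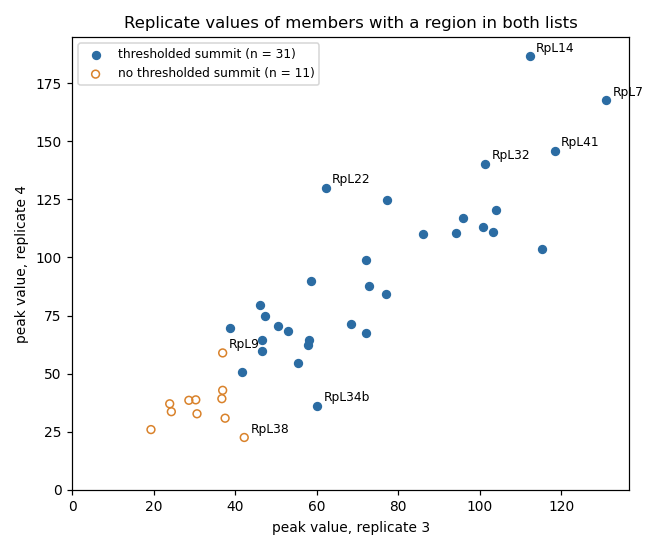
Peak value in replicate 4 (y axis) against replicate 3 (x axis), on the authors' score, for the 42 genes with a region in both lists; filled points are the 31 occupied genes and open points 11 genes without a thresholded summit. The points rise together, RpL34b lies among the open points in replicate 4 and RpL22 lies high in replicate 4 for its value in replicate 3.

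The gap between replicates was measured from a gene's highest replicate 3 summit to its nearest replicate 4 summit, which need not be its highest. Over the 42 genes its median was 41 bp (95% order-statistic interval 35 to 46 bp). It ran from 0 bp at RpL27 to 362 bp at RpL35, and 29 genes were within 50 bp. For the occupied members the median was 39 bp and the largest gap 92 bp, at RpL17. Other occupied genes had a median gap of 26 bp, and other genes with a region in both lists 51 bp. The median distance of the members' summits from the start was thus no larger than the median gap between replicates, and the position at a single gene is not resolved more finely than that gap.

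A second pooled summit was listed at 7 genes. At RpL27A, RpL28, RpL34b, RpL36 and RpLP1 it lay 199 to 277 bp from the first, and the smallest spacing in the nuclear pooled list was also 199 bp. It had a q-value of 0.05 or less at 3 of the 7, among them RpL27A (68.9) and RpL28 (74.1), both on the upstream side, at -261 and -266 bp. At RpL17 it lay 1054 bp away, at another annotated start, with 44.9 and a q-value of 0.47.

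At 16 of the 31 occupied genes (51.6%) the same peak also lay within 500 bp of another gene's start, in every case a gene on the opposite strand, and 52.0% of the other occupied genes shared their peak. RpL28 shared its peak with eIF1, which selects start codons, RpL14 with Nelf-E, a subunit of the factor that holds RNA polymerase II paused near promoters, and RpL13 with Dref, which binds the DRE. Since these summits were nearer to the ribosomal gene, occupancy is given for that gene, but a peak between divergent starts cannot be told apart into shares for each.

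Among promoter motifs, searched from 250 bases before to 50 from the 5'-most start, the TCT core had the highest share in the family relative to all genes. CTTT within 5 bp of any annotated start was present at 33 of the 53 genes (62.3%) and at 8.07% of all protein-coding genes. With the 5'-most start only it was at 18 members (34.0%, against 5.64%), and members more often have over 1 start (47.2% against 26.4%), which gives the motif more places to match. At any start it was present at 22 of the 31 occupied genes (71.0%) and 11 of the 22 others. The DRE (TATCGATA, both strands) was at 15 members (28.3%, against 9.36%), 8 occupied and 7 not, namely 25.8% and 31.8%. The Motif 1 core (GTCACACT, both strands) was at 7 members (13.2%, against 6.62%), all occupied: RpL7, RpL14, RpL19, RpL27, RpL27A, RpL37A and RpLP1. Over all protein-coding genes, 5.42% of the 923 with this core and 5.34% of the 13022 without it were occupied. The E-box (CACGTG, both strands), a site of Myc among others, was at 12.9% of occupied and 13.6% of other members, against 4.20%. GAGAG, the site of the GAGA factor, was at 22.6% and 18.2%, against 29.7%, and the TATA box (TATAAA, sense strand) at 29.0% and 40.9%, against 32.1%. CGATA, which lies within the DRE and is bound by BEAF-32, was at 74.2% and 68.2%, against 47.4%. CAGGTAG, bound by Zelda in the early embryo, was at none of the 53, against 1.64%. AAAAAA was at 71.0% and 54.5%, against 50.4%. The 39 genes of the small subunit had the TCT core at 64.1%, the DRE at 33.3%, the Motif 1 core at 10.3% and CGATA at 74.4%. These motifs were thus not particular to the large subunit. Small subunit genes had the E-box at 0.0% and GAGAG at 10.3%. A match is a description of the letters and not a binding site, and the counts are small.

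**Figure D4:**
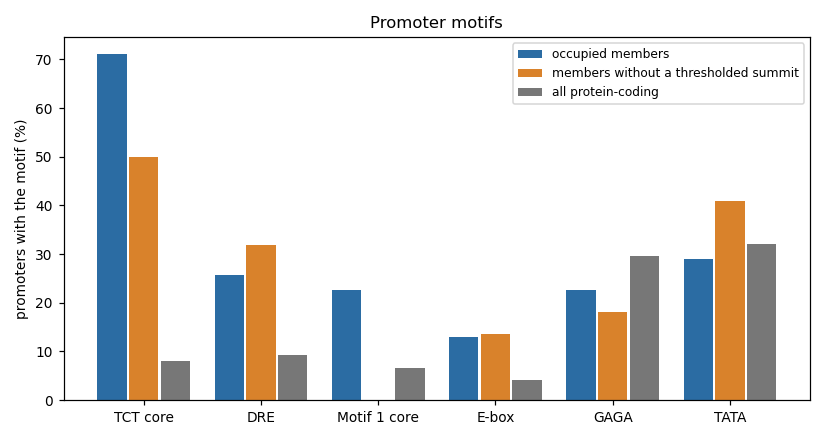
Share of promoters (y axis, percent) that hold each of 6 motifs (x axis) for 31 occupied large subunit genes, 22 without a thresholded summit and all 13945 protein-coding genes. The TCT core stands at 71.0% of occupied genes and 8.07% of all genes, and the Motif 1 core at 22.6, 0.0 and 6.62%. Over all protein-coding genes, 5.42% of those with the Motif 1 core and 5.34% of those without it were occupied.

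Within 100 bases either side of the summit, the 31 member peaks were compared with the 515 other promoter peaks of the thresholded list. The DRE was in 25.8% against 4.47%, the Motif 1 core in 19.4% against 2.14% and the E-box in 12.9% against 3.50%. GAGAG was in 9.68% against 24.7% and TATAAA in 12.9% against 37.5%. The member windows held less A+T, with a median of 57.2% (44.3 to 72.1%) against 65.7%. TATAAA holds only A and T, and what part base composition has in its share was not tested, while AAAAAA was in 41.9% against 41.2%. Windows set on the summit also cover different parts of the promoter, since 96.8% of occupied members and 24.8% of other occupied genes had it within 100 bp. In the promoter windows, the DRE was at 25.8% of occupied members and 12.4% of the 715 other occupied genes. There the Motif 1 core was at 22.6% against 6.01% and the E-box at 12.9% against 4.9%. GAGAG was at 22.6% against 35.0%, and TATAAA at 29.0% against 28.8%. The DRE began -12 bp from the summit at RpL27, -28 bp at RpL28 and 39 bp at RpL34a. The Motif 1 core began 15 bp from it at RpLP0, where it lies outside the window of the 5'-most start, and 22 bp at RpLP1. The motifs thus lay on either side of the called summit. At RpL28, RpL34a and RpLP1 the replicate summits were 67, 43 and 39 bp apart, so the side is not resolved there. At RpL27 and RpLP0 these gaps were 0 and 4 bp.

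The genes of the small subunit, chosen by symbols starting with RpS and sta, had 15 of 39 occupied (38.5%), with a median value of 115 and a median position of -21 bp, 14 of the 15 within 100 bp. RpS27 had the highest value, 310, with its summit at -21 bp. The large subunit share was higher by count, and this difference between the subunits was not tested. The position near the start was thus found in both. Of 73 genes of the mitochondrial ribosome, whose products work in the organelle where TFAM resides, 7 were occupied (9.59%), with a median value of 319 and a median position of -131 bp, 1 of the 7 within 100 bp. Of 25 genes for ribosome assembly and the nucleolus, eIF6 (281.2) and Ns2 (258.4) were occupied (8.0%), at -122 and -161 bp. The share over all protein-coding genes was 5.35%, and the mitochondrial ribosome and assembly lists were much nearer to it than either cytosolic subunit.

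Along the chromosomes, 7 of 13 members were occupied on 2L, where 5.53% of all protein-coding genes were, and 8 of 13 on 2R (4.73%). The counts were 5 of 10 on 3L (5.55%), 7 of 11 on 3R (6.11%) and 4 of 6 on X (4.6%). No arm held all of them, and on each of these arms at least 1 member had no thresholded summit. RpL5, RpL10, RpL15, RpL21 and RpL38 lay beyond the outermost thresholded summits of their arms, as did 382 protein-coding genes in all. Of the other 48 members, 31 were occupied, a count the choice of these limits fixes in part.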

How the data were processed

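Chromatin immunoprecipitation with sequencing of embryos gave 2 replicates of 1 group. Per the deposited descriptions of the files, the authors called regions, background included, in each replicate and in both together against a control alignment. The thresholded list holds the peaks kept from these by irreproducible discovery rate, a measure of how well ranks repeat. Aligner and caller are not given in the sources used. The peak value is a score that the authors' caller assigned, and the deposited lists also hold the −log10 of a q-value. Depth is unknown, and intervals cover the counting of genes only, which are not independent samples. Lists on dm3 were not used here.

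Genes and start sites came from Ensembl 115 (BDGP6.54) and bases from RefSeq Release 6, and all peak ends in the 4 dm6 lists lay within its chromosomes. Positions are dm6, counted from 1. Computation used Python 3.11.15, pandas 2.3.3, numpy 2.4.6 and scipy 1.17.1, and the gene and motif searches were tested on simulated data. A gene's value is its highest summit within 500 bp of a start. Counts and medians are set beside those over all genes, with no test, since there is 1 group. The members, lists and motifs were chosen with earlier results of these data known. Named genes are the 10 highest and the 3 lowest occupied members, the lists by role, and members whose status differs between replicates, and others are named after their values were seen. An occupied member that counts and medians include is not reported here by name.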

Additional observations from a re-analysis of the deposited data

How the results depend on the processing

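Of 37 alternatives, 34 left a result within the limits set (1.5 times for a count). Some of the 34 could not differ, among them the setting of genes nearest to their peak, which all 31 occupied members are. With the thresholded list cut at its median value, the number of occupied members fell to 19, by construction of the stricter list. That was 35.8% of the members, against 2.92% of all protein-coding genes. In this setting the members' median value was 211 against 161 and their median position -47 against -33 bp, and both counted as within the limits. The DRE count was 8 within 100 bases of a summit, where only occupied members could be counted, against 15 in promoters. The TCT count was 18 of 53 with the 5'-most start only and 47 within 10 bp, where the share of all genes was 5.64% and 14.9%, so the TCT shares depend on which start is used. These TCT settings were chosen after seeing the data. The settings without replicate 3 and without replicate 4 kept thresholded peaks that overlap a region of the other replicate with a q-value of 0.05 or less. They gave 30 and 31 occupied members (56.6% and 58.5%), against 4.9% and 5.29% of all protein-coding genes. The thresholded list itself was made from both replicates, so neither was truly left out, and the values and positions stayed those of the joint call. Windows of 200 and 1000 bp both gave 31 members, against 3.49% and 6.46% of all genes, and the members could not change because their summits lie within 120 bp of a start and the nearest one to any other member is 1984 bp away. No paired analysis was possible because there is 1 group. Depth, an untagged control and reads that map to several places could not be examined in peak lists.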
